A study of Mus musculus with 11 samples.

Results

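In CD4+ CD8+ double positive thymocytes, 4404 short stretches of chromatin were acetylated on lysine 27 of histone H3 (H3K27ac) in every library of both genotypes, held no called cohesin and lay far from the next stretch of that kind. They were chosen by the peak calls themselves, that is by presence in all 4 H3K27ac lists, region length, absence of Smc1a peaks and the gap to the next such region, and these 4 properties are therefore descriptions, not findings. They come from 24430 union regions, made by merging overlapping or touching H3K27ac peaks of 4 peak lists on the mouse build mm9. Of these regions, 12129 had a peak of all 4 lists and are called shared here. Shared regions shorter than 10000 bp numbered 11564, and 7436 of them overlapped no peak of either Smc1a list. The 4404 lone regions (36.3% of the shared regions and 18.0% of all union regions) also had no other shared region within 12.5 kb.

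Cohesin is a ring-shaped protein complex that holds DNA strands together and takes part in folding chromosomes into loops and domains. Smc1a is one of its core subunits, and Rad21 closes the ring. H3K27ac marks active promoters and enhancers, which recruit transcription factors and the transcription machinery. Enhancers can occur in dense groups or singly, and contacts between distant elements depend in part on cohesin. Double positive thymocytes are the stage of T cell development at which the alpha chain of the T cell receptor is assembled and cells are selected. The title of the series concerns cohesin and the spatial grouping of enhancers, and the lone regions are the acetylated places with neither called cohesin nor a close shared neighbour.

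The wild-type group (WT) came from control mice, and the Rad21 -/- group (KO) from littermates in which a floxed Rad21 allele was recombined by a Cd4-driven Cre transgene. Expression from Cd4 starts at about the double positive stage, so the model limits deletion to these and later T cells. The labels do not say whether control mice carried the floxed allele or Cre. All mice were 6 weeks old and the cells were sorted by flow cytometry. There were 2 libraries of H3K27ac for each genotype and 2 of Smc1a for WT only, so cohesin in KO cells was not measured. Nothing in the labels ties a library to its own mouse, and p-values over libraries then measure the spread between these samples, which may be technical. The labelled cell type was not checked against marker genes, since gene models of mm9 were not used here.

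The H3K27ac lists held between 15686 peaks (WT replicate 2) and 21973 peaks (WT replicate 1), and the Smc1a lists 25484 and 17726. Each H3K27ac library covered 45.6 to 56.3 Mb, with median peak widths of 1852 bp (KO replicate 2) to 2164 bp (WT replicate 2). The lists hold no read counts, so the depth of each library is unknown. No H3K27ac peak was identical in position between any pair of lists.

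Lone regions were compact. Their lengths ran from 373 to 9863 bp, with a median of 2496 bp and quartiles of 1995 and 3252 bp. All shared regions had a median length of 2922 bp. Of the lone regions, 1938 (44.0%) were 2000 to 3000 bp long, 1108 were shorter than 2000 bp, 808 were 3000 to 4000 bp long and 550 (12.5%) were longer. Most were called as an unbroken stretch: a single peak was reported for 95.9% and 96.9% of them in WT replicates 1 and 2, and for 96.4% and 94.6% in KO replicates 1 and 2. No library split a lone region into more than 3 peaks, and 3986 (90.5%) were a single peak in all 4 libraries, against 82.4% of all shared regions. The share called as 1 peak was 96.4 ± 0.690% in WT and 95.5 ± 1.25% in KO libraries (SD, n = 2 each; two-sided exact permutation test, p = 0.667). KO replicate 1 lay between the WT libraries, so the groups overlapped. With 2 libraries against 2, the smallest p this test can give is 0.333, here and in every test over libraries below.

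By the score that the authors' peak caller gave each peak, the median lone region stood above the middle of each list except that of WT replicate 2. There it stood just below the middle. A score percentile of 100 is the highest score of a list, and the best peak in a region was used. Median percentiles were 66.0 in WT replicate 1, 48.3 in WT replicate 2, 62.4 in KO replicate 1 and 64.0 in KO replicate 2. Lower quartiles were 49.7, 27.5, 45.4 and 45.9 in the same order. The list of WT replicate 2 is the shortest, and percentiles from lists of different lengths do not show a change. In each list the shared regions as a whole had the higher median, at 70.8, 59.3, 67.2 and 67.6 in the same order. Many H3K27ac peaks have scores of 3100 or more, and the highest scores of the lists were 3209.03 to 3233.06. Such scores occurred at 187 lone regions (4.25%) in WT replicate 1, 41 (0.931%) in WT replicate 2, 101 (2.29%) in KO replicate 1 and 153 (3.47%) in KO replicate 2. Lone regions that overlap a Smc1a peak had such scores more often in each list, in 14.7%, 7.88%, 11.5% and 13.0% of cases.

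Lone regions reached almost the same extent in every library. Their covered length summed to 10.7 and 10.3 Mb in the WT libraries and to 11.0 and 10.2 Mb in the KO libraries. The KO values enclosed the WT values, with KO replicate 1 highest and KO replicate 2 lowest. The WT mean was 10.5 ± 0.315 Mb and the KO mean 10.6 ± 0.621 Mb (SD, n = 2 each), a KO minus WT difference of 0.104 Mb that was smaller than the spread within either group (two-sided exact permutation test, p = 1). The sign of this difference rested on single libraries, since leaving out WT replicate 2 gave -0.118 Mb and leaving out KO replicate 1 gave -0.335 Mb. Leaving out WT replicate 1 gave 0.327 Mb and leaving out KO replicate 2 gave 0.543 Mb. The lone regions were not chosen anew when a library was left out, here and below. Lone regions made up 19.0% and 22.5% of all bases covered in the WT libraries and 21.0% and 21.4% in the KO libraries, a difference of 0.372 percentage points (exact permutation test, p = 1). That difference was -1.37 points without WT replicate 1, 2.11 points without WT replicate 2, 0.567 points without KO replicate 1 and 0.178 points without KO replicate 2. Because the rule asks for a peak in every library, a region that lost its call in KO cells cannot be a lone region here, and these values say nothing of such losses.

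Within a lone region the 4 libraries mostly marked the same bases. All 4 covered 71.3% of the bases, both WT but neither KO library 1.34%, and both KO but neither WT library 1.87%. Bases covered by a single library made up 3.40% for KO replicate 1, 3.04% for WT replicate 1, 1.97% for KO replicate 2 and 1.84% for WT replicate 2. The Jaccard index, the shared bases divided by the bases covered by at least 1 library of a pair, was 0.838 for the WT pair and 0.836 for the KO pair. Across genotypes it was lowest, at 0.814, between WT replicate 1 and KO replicate 2 and highest, at 0.848, between WT replicate 1 and KO replicate 1, a range that holds both values within genotypes. At the midpoint of a lone region a peak was present in 98.1% (WT replicate 2) to 99.1% (WT replicate 1) of cases. At 1000 bp to either side this share was 58.5% and 54.7% in WT and 62.6% and 55.4% in KO libraries, and at 2000 bp it was 10.2% and 8.32% in WT and 10.4% and 8.50% in KO libraries. Among the 4 libraries, KO replicate 1 was the highest at 1000 and 2000 bp and WT replicate 2 the lowest.

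**Figure D1:**
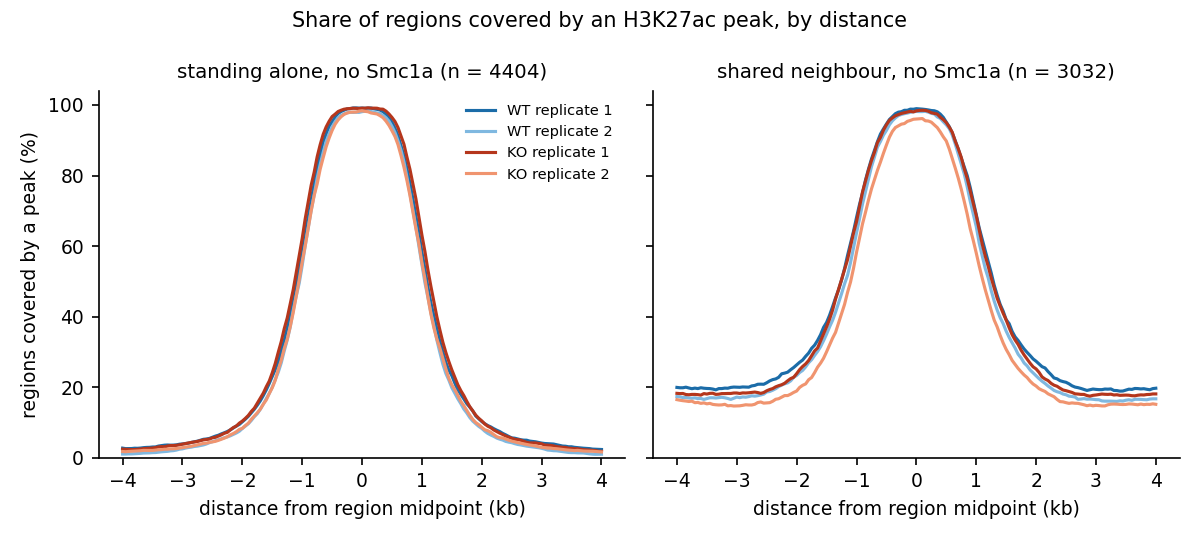
Percent of regions covered by an H3K27ac peak (vertical axis) against distance from the region's midpoint in kb (horizontal axis), with 1 line per library, for the 4404 lone regions and for the 3032 cohesin-free regions with a shared neighbour. At 1000 bp the lines of the lone regions lie between 54.7% (WT replicate 2) and 62.6% (KO replicate 1), and those of the other class between 58.1% (KO replicate 2) and 68.5% (WT replicate 1).

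Each lone region was also compared on its own. The largest covered length of the 4 libraries was within 1.5-fold of the smallest at 3438 lone regions (78.1%), and 2-fold or more above it at 287 (6.52%). The corresponding shares of all shared regions were 73.6% and 8.61%. The median absolute log2 difference in covered length was 0.13 between the WT libraries, 0.15 between the KO libraries and 0.12 between the genotype means. Means of 2 libraries vary less than single libraries, so the last value cannot be set directly against the other values. The fitted KO to WT ratio lay within 10% of equality at 2413 lone regions (54.8%), against 50.1% of all shared regions. It lay outside a 1.5-fold range at 215 lone regions (4.88%), against 6.46% of all shared regions. limma's moderated test on log2 covered length, fitted over all 12129 shared regions with Benjamini-Hochberg adjustment, called no lone region at an adjusted p under 0.05 (smallest adjusted p = 0.252). It called 0.0% of all shared regions in either direction. At an unadjusted p under 0.05 there were 288 of the 4404 lone regions, 115 with lower and 173 with higher coverage in KO libraries. Of the 12129 shared regions there were 988, 634 lower and 354 higher.

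A looser description counts regions whose KO libraries both lie on the same side of both WT libraries. Covered length was higher in both KO libraries at 1030 lone regions (23.4%), against 17.4% of all shared regions, and lower in both at 619 (14.1%), against 22.9% of all shared regions. The groups overlapped at the other 2755 (62.6%). More of the lone regions were thus higher than lower in KO libraries, and more of all shared regions lower than higher. Both orders rested on single libraries and varied with region length. Among regions 2000 to 3000 bp long, 24.8% of the lone regions were higher and 12.7% lower. All shared regions of that length had the same order, with 20.7% higher and 17.6% lower. Lone regions of 4000 bp or more had 17.1% higher and 17.3% lower. The median log2 KO minus WT difference was 0.020 over lone regions and -0.025 over all shared regions. After the medians of the libraries were set equal, higher and lower shares of the lone regions were 25.1% and 13.1%, and of all shared regions 19.0% and 21.2%. With 3 libraries fewer values have to be apart, and without KO replicate 1 the order among lone regions turned, with 32.9% higher and 40.1% lower in KO replicate 2 than in both WT libraries. All shared regions then had 25.0% higher and 50.3% lower. Without KO replicate 2 the order among all shared regions turned, with 39.3% higher and 28.9% lower, beside 48.1% and 20.5% of the lone regions. Without WT replicate 2 the lone regions had 35.9% higher and 31.7% lower, and all shared regions 29.5% and 40.4%. Without WT replicate 1 the shares were 40.8% and 24.7% of the lone regions and 31.6% and 35.6% of all shared regions. In each of these 4 cases the higher share was greater, and the lower share smaller, among lone regions than among all shared regions. The median log2 difference was -0.019 without KO replicate 1 and 0.0061 without WT replicate 2.

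The nearest relatives of the lone regions are shared regions of the same length limit that break only 1 further condition. Of cohesin-free regions with a shared neighbour within 12.5 kb there were 3032. Regions that stand alone but overlap a Smc1a peak numbered 1777. They are not among the 4404 and are called lone regions with Smc1a. Set to the mean of the WT libraries as 100%, the coverage of lone regions was 102% and 97.9% in WT replicates 1 and 2 and 105% and 96.8% in KO replicates 1 and 2. Regions with a shared neighbour had 102% and 97.6% in WT and 101% and 89.0% in KO libraries. Lone regions with Smc1a had 100.1% and 99.9% in WT and 100.4% and 91.9% in KO libraries. KO replicate 2 was the lowest library of every class, but least so at the lone regions without Smc1a.

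**Figure D2:**
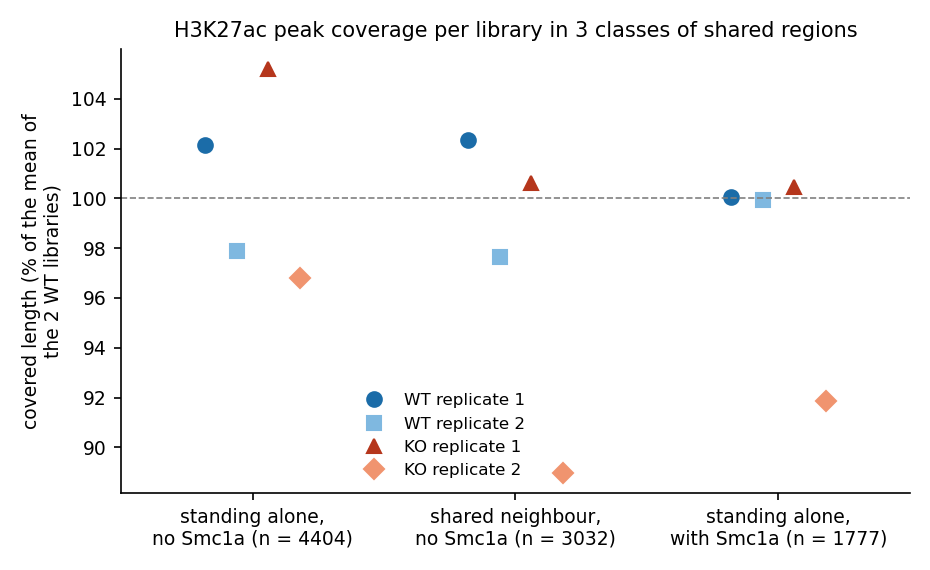
Summed covered length of each H3K27ac library, as a percent of the mean of both WT libraries (vertical axis, not starting at 0), in 3 classes of shared regions shorter than 10000 bp (horizontal axis). Each point is 1 library. KO replicate 2 lies at 96.8% for lone regions, 89.0% for regions with a shared neighbour and 91.9% for lone regions with Smc1a.

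Ratios taken within a library remove a factor common to all its regions, but not differences in called width that vary between the classes. Covered length of lone regions divided by that of regions with a shared neighbour was 1.25 and 1.26 in WT libraries and 1.31 and 1.36 in KO libraries. Both KO values lay above both WT values, with a KO minus WT difference of 0.093 on the log2 scale (two-sided exact permutation test, p = 0.333, the smallest it can give). Divided by lone regions with Smc1a, the ratio was 1.85 and 1.78 in WT and 1.90 and 1.91 in KO libraries, again with no overlap and a log2 difference of 0.071 (exact permutation test, p = 0.333). Length moved with these classes, since medians were 2496 bp for lone regions, 2812 bp for regions with a neighbour and 3138 bp for lone regions with Smc1a. Among regions 2000 to 3000 bp long the log2 differences were 0.071 and 0.042. Without WT replicate 2 the second difference was also 0.042, and where each library had to cover at least 50% of a region the first was 0.050. No alternative run turned either direction.

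How alone a region stood also varied among the lone regions. The gap to the nearest other shared region had a median of 47921.5 bp, with quartiles of 25278 and 106566 bp and a largest value of 7826551 bp. Coverage in KO libraries relative to WT was greatest at the wide gaps. For 1079 lone regions with a gap under 25000 bp, coverage was 103% and 97.3% of the WT mean in the WT libraries and 102% and 93.1% in KO replicates 1 and 2. Gaps of 25000 to 50000 bp (1188 regions) gave 105% and 96.0% in the KO libraries, and gaps of 50000 to 100000 bp (957 regions) gave 107% and 98.5%. At gaps of 100000 bp or more (1180 regions) the KO libraries stood at 107% and 100.3% and the WT libraries at 102% and 98.4%. Each class is scaled to its own WT mean, so the WT values centre on 100% by construction. Against that scale both KO libraries stood higher at the widest gaps than at the narrowest. Among lone regions with no other region of any list within 12.5 kb, mean KO coverage was 100.8%, 100.4%, 104% and 104% of WT coverage in the same order of gaps, with the second class just below the first.

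**Figure D3:**
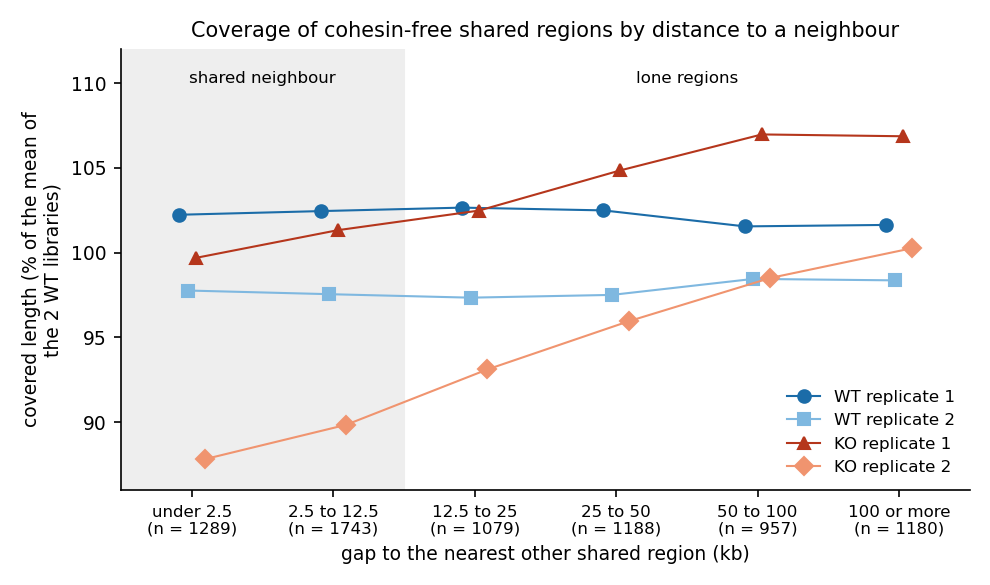
Summed covered length of cohesin-free shared regions per library, as a percent of the mean of both WT libraries (vertical axis, not starting at 0), by the gap to the nearest other shared region in kb (horizontal axis, number of regions in brackets). Regions in the grey area have a neighbour within 12.5 kb and are not lone regions. KO replicate 2 stands at 93.1% in the first class of lone regions and at 100.3% in the last. The WT lines centre on 100% in each class by the scaling.

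The ratio of covered length at gaps of 100000 bp or more to that at gaps under 25000 bp was 0.928 and 0.947 in WT libraries and 0.978 and 1.01 in KO libraries. Both KO values exceeded both WT values, by 0.083 on the log2 scale (two-sided exact permutation test, p = 0.333). Region length fell along the same classes, from a median of 2622 bp to 2370 bp. Among lone regions of 2000 to 3000 bp the same ratio was 1.07 and 1.09 in WT and 1.11 and 1.15 in KO libraries, a log2 difference of 0.069 (exact permutation test, p = 0.333). These gap classes were chosen after the values of the whole set had been seen.

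Counts over lone regions of any length followed the same order. Both KO libraries were higher at 19.9% of lone regions with gaps under 25000 bp, 21.8% at 25000 to 50000 bp, 24.5% at 50000 to 100000 bp and 27.3% at 100000 bp or more, against 17.4% of all shared regions. Both were lower at 18.0%, 16.5%, 10.9% and 10.6% in that order, against 22.9%. Regions with a neighbour within 2500 bp, which are not lone regions, had 15.0% higher and 23.9% lower. The order was less strict in 2 restricted sets. Among lone regions of 2000 to 3000 bp, 19.8%, 24.5%, 23.3% and 30.9% were higher and 15.3%, 15.1%, 9.88% and 10.4% lower. All shared regions of that length had 20.7% and 17.6%. With no other region of any list within 12.5 kb, 23.9%, 21.9%, 26.4% and 27.9% were higher and 13.1%, 17.1%, 8.78% and 9.39% lower.

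**Figure D4:**
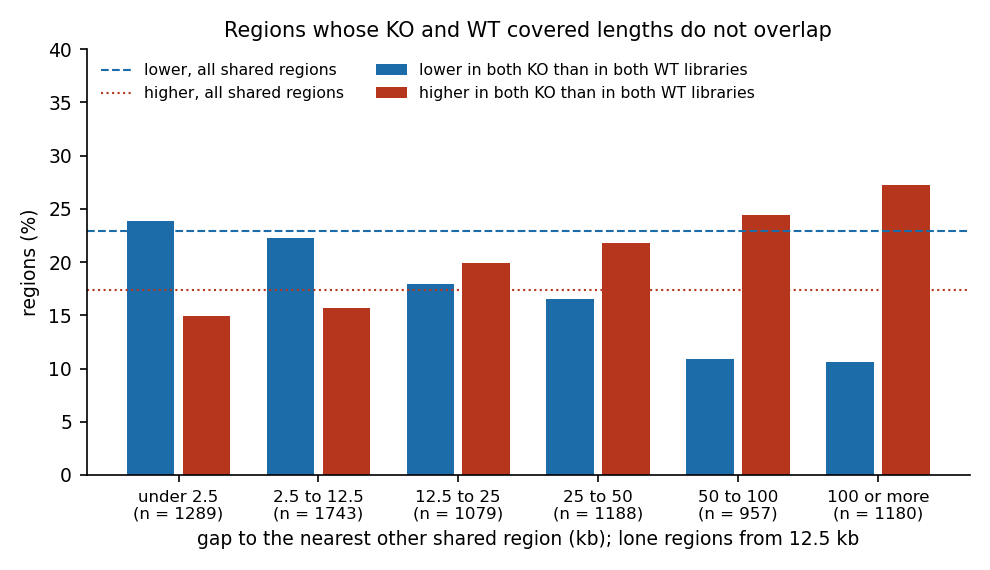
Percent of cohesin-free shared regions (vertical axis) whose covered length in both KO libraries was below (blue) or above (red) that of both WT libraries, by the gap to the nearest other shared region in kb (horizontal axis). Dashed and dotted lines mark the shares over all shared regions, 22.9% lower and 17.4% higher, and the most distant lone regions have 10.6% lower and 27.3% higher.

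Smc1a peaks lay outside the lone regions by the rule, at distances that varied widely. The nearest Smc1a peak of replicate 1 was a median of 17295.5 bp from a lone region and that of replicate 2 a median of 25070.5 bp. Within 5000 bp a Smc1a peak of replicate 1 lay near 735 lone regions (16.7%) and 1 of replicate 2 near 500 (11.4%). Within 25000 bp these counts were 2756 (62.6%) and 2193 (49.8%). Of all shared regions, some of which overlap a Smc1a peak, 49.5% and 37.7% had a peak within 5000 bp. Within 25000 bp it was 81.1% and 69.9%. Regions with a shared neighbour had 33.2% and 23.5% within 5000 bp and 83.7% and 72.0% within 25000 bp. Regions with a shared neighbour had Smc1a closer, with medians of 8516 and 12646.5 bp in the same order. Cohesin-free therefore means here that no peak was called on the region itself, in WT cells. Of 4373 lone regions with a shared region on either side, 2601 (59.5%) had a Smc1a peak in the gaps on both sides, 1532 (35.0%) on 1 side, and 240 (5.49%) in neither gap. These shares have no counterpart from other classes, and the rule itself makes the gaps wide. The gap to the nearest other shared region had a median of 47921.5 bp for lone regions and 13838 bp for all shared regions. Whether the shares differ from those of other regions with gaps of equal width was not tested.

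**Figure D5:**
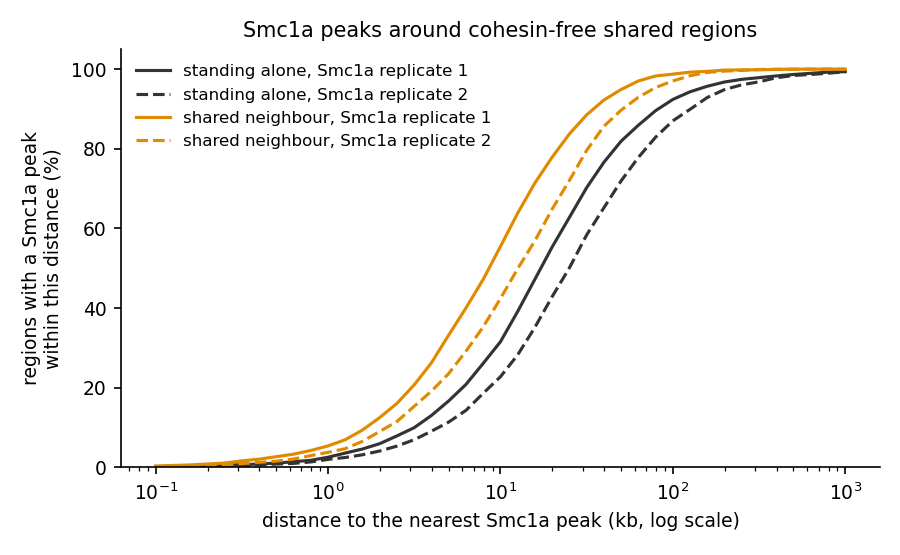
Cumulative percent of regions with a Smc1a peak within a given distance (vertical axis) against that distance in kb on a log scale (horizontal axis), for lone regions and for cohesin-free regions with a shared neighbour, with a line for each Smc1a replicate. In both replicates the curve of the lone regions lies to the right, with 31.6% and 22.8% of lone regions within 10000 bp of a peak against 55.5% and 42.4%.

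Distance from Smc1a was examined in the same way. For 777 lone regions within 5000 bp of a Smc1a peak of either list, KO coverage averaged 100.4% of WT coverage, and for 721 at 50000 bp or more it averaged 102%. The ratio of covered length in the more distant to that in the closer class was 0.776 and 0.783 in WT and 0.782 and 0.801 in KO libraries. KO replicate 1 lay between the WT libraries, so the groups overlapped (log2 difference 0.021, two-sided exact permutation test, p = 0.667). Both KO libraries were higher at 21.8% of the closer and 23.2% of the more distant regions, and lower at 14.4% and 12.8%, against 17.4% higher and 22.9% lower of all shared regions. Whether distance from Smc1a and distance from another shared region differ in their relation to KO coverage was not tested.

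Standing alone refers to shared regions, and 1387 lone regions (31.5%) had a region called in 1 to 3 lists within 12.5 kb. The share was 45.5% of regions with a shared neighbour and 41.9% of lone regions with Smc1a. An unshared region of WT replicate 1 lay that close to 23.7% of lone regions, of WT replicate 2 to 6.81%, of KO replicate 1 to 18.8% and of KO replicate 2 to 19.5% (KO minus WT 3.93 percentage points, exact permutation test, p = 1). WT replicate 2, the shortest list, was far below the other libraries. In the same order of libraries, regions with a shared neighbour had 35.1%, 14.5%, 23.9% and 22.4%. Lone regions with Smc1a had 30.3%, 15.1%, 22.0% and 21.8%. Regions called in both WT but neither KO library lay near 74 lone regions (1.68%), and regions called in both KO but neither WT library near 96 (2.18%). Around regions with a shared neighbour the order was the opposite, with 108 (3.56%) and 85 (2.80%), and around lone regions with Smc1a it was 73 (4.11%) and 44 (2.48%). These counts have no test. The 3017 lone regions with no other region of any list within 12.5 kb had both KO libraries higher in 25.2% and lower in 12.0% of cases, and the other 1387 had 19.5% and 18.5%. All shared regions had 17.4% and 22.9%.

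Lone regions occurred on chromosomes 1 to 19 and X. They formed 46.2% of the shared regions of chromosome X (150 of 325), 42.3% of those of chromosome 14 (182 of 430) and 40.9% of those of chromosome 12 (201 of 492). Chromosomes 10 (31.7%, 229 of 722) and 11 (31.8%, 310 of 975) had the lowest shares. KO coverage summed over a chromosome ran from 98.7% of WT coverage on chromosome 16 to 103% on chromosome 12, and was above WT on 15 of 20 chromosomes. More lone regions were higher than lower in both KO libraries on 20 of 20 chromosomes, and more of all shared regions on 4 of 20. Without KO replicate 1 this was so on 3 chromosomes for lone regions and on 0 for all shared regions. Chromosomes share their libraries and are not replicates. Along the chromosomes, 1435 lone regions (32.6%) had a lone region as the next shared region on either side, and 885 (20.1%) on neither side.

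Among the longest lone regions, that of chromosome 2 from 84676468 to 84686330, which is 9863 bp long, had peaks over 9060 and 9853 bp in WT against 8831 and 8657 bp in KO libraries. A region on chromosome 3 from 106837477 to 106847322 had peaks over 9587 and 9668 bp in WT against 9488 and 8791 bp in KO libraries. Both were nearly filled in every library, and at both the KO libraries lay below the WT libraries. Another, on chromosome 2 from 93293486 to 93303294, had 7356 and 3716 bp covered in WT against 9590 and 9523 bp in KO libraries, with WT replicate 2 far below the rest. The opposite order was seen on chromosome 14 from 26333951 to 26343748, with 9733 and 8123 bp in WT against 6933 and 4570 bp in KO libraries. The last of the 5 longest lay on chromosome 11 from 117636162 to 117645917, had scores of 3100 in all 4 lists and had peaks over 8237 to 9756 bp, with a Smc1a peak 1621 bp away.

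The most isolated lone region was on chromosome 14 from 87814933 to 87816750, at 7826551 bp from the next shared region. It had peaks over 1777 and 1818 bp in WT against 1734 and 1763 bp in KO libraries, and its extent was nearly the same in all 4. A region called in only some of the lists lay 298 bp away from it. Chromosome 1 held others at 4995210 bp (from 113760310 to 113761887) and 3529519 bp (from 103798366 to 103800353) from any shared region. Both were also among the 5 farthest from Smc1a, with gaps of 2334869 and 3082370 bp. The second had peaks over 1897 and 1946 bp in WT against 1847 and 1971 bp in KO libraries, with overlapping groups, and the first over 1346 and 1175 bp in WT against 1440 and 1578 bp in KO libraries, with the KO libraries above. The remaining most isolated regions lay on chromosome 8 from 54596408 to 54598284 and on chromosome 4 from 69991169 to 69995057.

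Farthest from any Smc1a peak was a pair of lone regions on chromosome 7, from 46772284 to 46773995 and from 46807040 to 46809317, at 3764549 and 3729227 bp. They are each other's nearest shared region, 33044 bp apart. The first had peaks over 1142 and 1406 bp in WT against 1712 and 1460 bp in KO libraries, and the second over 1923 and 2224 bp in WT against 2133 and 2173 bp in KO libraries. KO libraries were higher at the first, and the groups overlapped at the second. A region of chromosome X from 23269308 to 23271382, at 2745684 bp from Smc1a, had 1824 and 1852 bp in WT against 2067 and 1955 bp in KO libraries. At the other end of the scale, a lone region on chromosome 14 from 52815601 to 52818026 ended 1 bp from a Smc1a peak and had peaks over 2248 and 2134 bp in WT against 2206 and 2146 bp in KO libraries, again with overlapping groups. Chromosome 11 held one at 8 bp from a Smc1a peak (from 113510061 to 113511828), as did chromosome 4 (from 86531216 to 86533599) and also chromosome 6 (from 34424509 to 34427299). The last of the 5, at 49 bp, was on chromosome 6 (from 88951884 to 88955023).

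Scores of 3100 or more occurred in all 4 lists at 34 lone regions. Ranked by the lowest score percentile over the 4 lists, the first was on chromosome 12 from 110027190 to 110034667, with scores of 3112.71 and 3136.41 in WT and 3100 in both KO lists, and a covered length of 5941 and 7478 bp in WT against 5995 and 6025 bp in KO libraries. The other 33 were tied in rank, with lengths of 3570 to 9756 bp and a median of 6860 bp, and the 4 named next are the first of them in a fixed order. That on chromosome 1 from 137620038 to 137629118 had 9000 and 7657 bp in WT against 7883 and 6920 bp in KO libraries. Chromosome 1 also held those from 189168620 to 189173600 and from 191688065 to 191693771, and the latter had 5515 and 5183 bp in WT against 4443 and 3202 bp in KO libraries. The KO libraries were thus lower at the latter, although its scores were 3100 or more in all 4 lists. On chromosome 10 from 43456188 to 43463203, WT libraries had 6507 and 6407 bp and KO libraries 7016 and 6431 bp.

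The greatest differences between genotypes are given as a description, since they were ranked on this difference and none passed limma's test after adjustment. Lowest in KO was a region on chromosome 18 from 67829602 to 67833641, with 4040 and 3038 bp in WT against 1426 and 677 bp in KO libraries (limma log2 difference -1.83, SE 0.41, adjusted p = 0.418). On chromosome 1 from 43295134 to 43298802 the replicates were closer, at 3498 and 3669 bp in WT against 1122 and 1064 bp in KO libraries (limma log2 difference -1.71, SE 0.10, adjusted p = 0.252). Similar values occurred on chromosome 1 from 178922523 to 178927803, with 4984 and 5167 bp in WT against 1713 and 1470 bp in KO libraries. At each of these regions both KO libraries covered less than either WT library, and a call was still present in both. Several of these calls ranked low in their lists. Score percentiles in KO replicates 1 and 2 were 30.4 and 8.89 on chromosome 18, and 44.6 and 32.4 on chromosome 1 from 43295134. From 178922523 they were 12.8 and 20.4, with 17.8 in WT replicate 2. The other 2 of the 5 lowest were on chromosome 5 from 140656924 to 140663375 and on chromosome 14 from 16964832 to 16969844.

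Highest in KO was a region of chromosome 2 from 33225343 to 33227995, with 672 and 724 bp in WT against 2653 and 2461 bp in KO libraries (limma log2 difference 1.87, SE 0.11, adjusted p = 0.252). Its best scores stood at percentiles 45.1 and 24.7 of the WT lists and 71.4 and 54.8 of the KO lists. Percentiles from lists of different lengths do not show a change. On chromosome 7 from 120423413 to 120428003, 923 and 1299 bp were covered in WT against 4591 and 3456 bp in KO libraries (limma log2 difference 1.86, SE 0.24, adjusted p = 0.292), from WT calls close to the lowest scores of their lists (64.95 and 58.26). On chromosome 17 from 89066962 to 89072401 it was 1441 and 2164 bp in WT against 5422 and 5020 bp in KO libraries. In these 3 regions both KO libraries covered more than either WT library. The remaining regions of this kind were on chromosome 12 from 106054509 to 106057868 and on chromosome 6 from 67065241 to 67070052, where WT replicate 1 covered 3494 bp and WT replicate 2 1123 bp.

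Some regions lay close to the limits of the rule. The 2 longest lone regions, of 9863 and 9846 bp, are given above. Just over the limit were cohesin-free regions with no close neighbour on chromosome 11 from 58790229 to 58800669 (10441 bp, covered over 9669 to 10441 bp) and on chromosome 15 from 59476198 to 59486769 (10572 bp, covered over 8321 to 9865 bp). Just beyond the neighbour distance were lone regions with gaps of 12504 bp (chromosome 15 from 98798624 to 98802357) and 12509 bp (chromosome 3 from 153591305 to 153593553). Just under it lay regions with gaps of 12496 bp (chromosome 19 from 5271553 to 5275098) and 12476 bp (chromosome 13 from 13697670 to 13704651), which are not lone regions.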

How the data were processed

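H3K27ac and Smc1a were mapped by chromatin immunoprecipitation and sequencing. The lists of 4 H3K27ac and 2 Smc1a libraries were used, and the 5 input libraries were not analysed here. Bowtie 0.12.8 and the build mm9 are named in the submitters' processing notes. Each deposited list holds 1 library, and its peaks have names in the style of MACS. The sources used here give neither the caller's version nor its settings or input. The deposited score of each peak is the authors' own value, starting at 50 in each list, and served to rank and filter peaks inside its own list. A missing peak is a missing call, and peak width depends on depth, which is unknown.

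Covered length is the number of bases of a union region under a library's peaks. Every shared region has at least 1 covered base in each library, so no pseudocount was used. Sums and shares were compared by two-sided exact permutation tests over libraries, and log2 covered length per region by limma 3.58.1 (R 4.3.3) over all shared regions, with genotype as the only term. Intervals were handled in Python 3.11.15 with numpy 2.4.6 and pandas 2.3.3. Interval functions and the fit were tested on simulated data. Coordinates are counted from 1.

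The lone regions, the comparison classes and the measures were chosen with earlier results of these data known. Regions were named by rank, 5 each, for length, distance from another shared region, distance from and closeness to Smc1a, lowest score percentile, and greatest difference in either direction among regions without overlap, with the 2 nearest on each side of the length and distance limits. Regions were not tied to genes and no sequence was read, as neither a genome nor gene models of mm9 were used here. The alternatives were neighbour distances of 5000 and 25000 bp, a length limit of 5000 bp, the upper 75% of each list by score, equal numbers of peaks, merging within 1000 bp, Smc1a sites of both replicates only, coverage of 50% or more of a region in each library, each library left out, the replicate number as a block and 2 kinds of scaling. Alternatives for the gap classes, and the restriction to 2000 to 3000 bp, were added after seeing the data.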

Additional observations from a re-analysis of the deposited data

How the results depend on the processing

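Over 11 results and 144 alternatives, 133 kept their direction, or for counts and shares stayed within 1.5 times. Some of the 133 could not have changed. The other neighbour distances, the length limit and the Smc1a sites of both replicates reuse the main limma fit, which called no shared region. The replicate block cannot alter the median log2 difference. The number of lone regions ran from 3325 (neighbour distance 25000 bp) to 5558 (neighbour distance 5000 bp). Where 1 library was left out, only this number was found again without that library. All other results then used the lone regions chosen with all 4 libraries. The coverage difference between KO and WT libraries was -0.0287 Mb with the neighbour distance of 5000 bp, and -0.335 to 0.543 Mb with 1 library left out. As a share of covered length it was -1.37 to 2.11 points with 1 library left out. With 1 library left out, the median log2 difference was -0.019 (without KO replicate 1) to 0.062, and regions without overlap were 20.5% to 40.1% lower and 32.9% to 48.1% higher, against 28.9% to 50.3% and 25.0% to 39.3% of all shared regions. The cause of these changes was not tested. The differences in ratio to regions with a shared neighbour (0.050 to 0.122), to lone regions with Smc1a (0.042 to 0.101) and between gap classes (0.058 to 0.106, log2) kept their direction under all alternatives run. limma called no lone region under any of them, with 821 to 1704 shared regions at an unadjusted p under 0.05 where 1 library was left out. Labels number the replicates 1 and 2 in both genotypes, but deviations of same-numbered libraries correlated weakly (0.062 over shared regions). The replicate block gave a difference of 0.104 Mb, which it cannot alter, and 0 calls, with 1132 shared regions at an unadjusted p under 0.05. Depth is unknown, and how far it set the called widths of each library was not tested.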
